A study of Mus musculus with 8 samples.

Results

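Genes that type I interferon induces were followed in mouse natural killer (NK) cells during activation with interleukin-2 (IL-2) and under KU55933, an inhibitor of the DNA damage kinase ATM. The list holds 48 genes, from the ubiquitin-like modifier Isg15 to the 2-5-oligoadenylate synthetases. The IRF and STAT factors, the guanylate-binding proteins and IRG GTPases, the Ifi200 family and the nucleic acid sensors are not on it. Each gene was represented by the transcript cluster, the array's gene-level probe set, with the highest mean log2 signal over the 8 arrays. Of the 48 genes, 42 were tested. Oas1g and Mx2 lay below the filter on dim signals, and Oas1a, Dtx3l, Ifi44 and Ly6a had no cluster naming them alone. In the whole series 22180 genes had a cluster of their own and 13998 were tested.

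RNA was hybridised to 8 arrays of the type Affymetrix Mouse Gene 2.0 ST, with 2 biological replicates in each of 4 groups. All cells came from mouse bone marrow depleted of CD90-positive T cells; strain, genotype, age and sex were not given in the sources used here. The day 0 group was freshly isolated, the day 4 group was cultured for 4 days in 1000 IU/mL of IL-2, and the day 9 group for 9 days with IL-2 added again after day 4. The last group was cultured for 9 days in the same way and given 7.5 µM of KU55933 on day 4. Only adherent cells were collected from the cultures, so activated and fresh cells also differ in how they were obtained. The protocol mentions a vehicle control, but it is not stated for the day 9 cells without inhibitor. The p-values rest on the spread between replicates within the 4 groups of these 8 samples, which limma draws towards that of all tested genes.

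Type I interferons bind the receptor formed by IFNAR1 and IFNAR2, whose kinases JAK1 and TYK2 activate the complex ISGF3, which contains IRF9 and binds the interferon-stimulated response element in the promoters of its target genes. The products degrade viral RNA, block translation, trap virions or, in the case of USP18, dampen the receptor itself. Interferon gamma, which NK cells secrete, signals mainly through gamma-activated sites, and many of the same genes respond to both.

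Promoter windows from the RefSeq tables (mouse build GRCm38.p6) cover 250 bases before to 50 bases after a gene's start and were found for 37 of the 48 genes. The core of the response element, written here as GAAA, any 2 bases and GAAA again on either strand, occurred in 17 of these 37 genes (45.9%), against 3.99% of 27025 genes in the table. The core of the gamma-activated site, TTCNNNGAA, occurred in 7 of the 37 (18.9%), against 9.55% of genes. The 2 motifs were counted separately, and matches that overlapped others of the same motif were kept. A match describes these letters in this window and is not evidence of binding. The 6 windows below, each 300 bases, were chosen among the genes with the largest changes with KU55933 or on day 4. They show a gene of each kind, with capitals marking the element core:
Oas3: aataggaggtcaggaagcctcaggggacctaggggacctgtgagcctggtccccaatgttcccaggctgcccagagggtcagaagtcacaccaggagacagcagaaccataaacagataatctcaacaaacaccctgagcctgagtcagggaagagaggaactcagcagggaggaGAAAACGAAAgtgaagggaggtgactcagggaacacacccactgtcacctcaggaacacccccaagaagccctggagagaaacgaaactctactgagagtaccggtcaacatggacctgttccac
Oasl2: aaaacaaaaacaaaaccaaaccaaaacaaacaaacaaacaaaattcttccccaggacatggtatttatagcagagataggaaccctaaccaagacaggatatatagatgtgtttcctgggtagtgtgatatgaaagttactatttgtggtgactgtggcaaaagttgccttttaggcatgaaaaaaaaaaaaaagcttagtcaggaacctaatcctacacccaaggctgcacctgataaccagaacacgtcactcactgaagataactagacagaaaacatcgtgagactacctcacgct
Ifitm3: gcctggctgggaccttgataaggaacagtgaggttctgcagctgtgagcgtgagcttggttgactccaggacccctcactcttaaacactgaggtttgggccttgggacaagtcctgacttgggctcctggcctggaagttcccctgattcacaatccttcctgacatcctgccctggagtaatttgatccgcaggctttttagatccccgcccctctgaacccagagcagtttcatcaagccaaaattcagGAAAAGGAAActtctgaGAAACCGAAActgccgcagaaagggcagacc
Ifitm2: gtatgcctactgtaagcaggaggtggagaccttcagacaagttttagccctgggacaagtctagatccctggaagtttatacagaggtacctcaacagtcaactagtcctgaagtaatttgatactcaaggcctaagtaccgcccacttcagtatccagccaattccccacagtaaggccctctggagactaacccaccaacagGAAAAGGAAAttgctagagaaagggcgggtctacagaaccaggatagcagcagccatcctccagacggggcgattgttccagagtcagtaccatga
Ifitm1: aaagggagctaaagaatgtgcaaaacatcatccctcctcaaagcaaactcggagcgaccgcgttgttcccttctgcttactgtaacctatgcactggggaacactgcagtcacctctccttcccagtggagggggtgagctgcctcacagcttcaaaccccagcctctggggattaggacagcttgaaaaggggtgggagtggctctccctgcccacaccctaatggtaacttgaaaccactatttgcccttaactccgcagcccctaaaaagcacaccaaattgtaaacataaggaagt
Ddx60: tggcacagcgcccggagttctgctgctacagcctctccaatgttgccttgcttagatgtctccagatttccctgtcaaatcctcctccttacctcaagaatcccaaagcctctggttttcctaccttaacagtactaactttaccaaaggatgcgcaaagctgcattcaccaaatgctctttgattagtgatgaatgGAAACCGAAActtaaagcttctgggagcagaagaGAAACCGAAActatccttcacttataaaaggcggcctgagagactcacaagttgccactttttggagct
The Oas3 window (chr5:120777610-120777909, minus strand) holds 1 core, 75 bases before the start, and Oasl2 (chr5:114896684-114896983, plus strand) holds none. Along chromosome 7 the genes Ifitm2, Ifitm1 and Ifitm3 follow each other without another protein-coding gene between them. Their windows differ: Ifitm3 (chr7:141010695-141010994, minus strand) has 2 cores just after the start, Ifitm2 (chr7:140955912-140956211, minus strand) has 1 core 46 bases before it, and Ifitm1 (chr7:140967826-140968125, plus strand) has none. Ddx60 (chr8:61927837-61928136, plus strand) has 2 cores, 53 and 19 bases before the start.

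NK identity was checked on 11 fixed marker genes, among them the activating receptor gene Ncr1 and the granzyme genes Gzma and Gzmb, and none lay below the array median in any group. The summed linear signal of these markers was 11735 to 12811 on day 0 and 23758 to 25639 in the activated groups. Against day 0, 6 of the 11 were called higher and 3 lower on day 4 (37.5% and 22.4% of all tested genes). On day 9 the counts were also 6 and 3 (36.0% and 22.0%). Gzmb averaged 9.56 on day 0 and 12.53 on day 4 (log2), and Tbx21 averaged 8.41 and 7.48. Array medians lay between 3.66 and 3.91 (log2), and replicate arrays had a correlation of 0.976 for day 0 and of 0.991 to 0.994 for the other groups, taken across genes (no independent replicates). The replicate SD of the listed genes was 0.30 on day 0 and 0.13 to 0.16 in the activated groups. Markers of other cells were present in fresh cells. The summed signal of 5 B cell markers was 870 to 1004 on day 0, 239 to 375 on day 4 and 61.2 to 70.2 in both day 9 groups, and that of 7 macrophage and monocyte markers was 2279 to 2462, 1405 to 1602 and 242 to 261. For 8 neutrophil markers the sum was 129 to 157 on day 0, 660 to 669 on day 4, 80.4 to 82.5 on day 9 and 103 to 105 with KU55933. The 6 plasmacytoid dendritic cell markers, from the cells best known for making type I interferon, summed to 729 to 762 on day 0, 328 to 369 on day 4, 492 to 508 on day 9 and 443 to 455 with KU55933. Of the 5 tested, 3 were called lower and 2 higher on day 9 than on day 0: Siglech was 6.63 and 6.77 (log2) on day 0 and 4.42 and 3.81 on day 9, and Cox6a2 was 5.50 and 5.26 on day 0 and 7.19 and 7.22 on day 9. The 4 megakaryocyte markers summed to 2080 to 2294 on day 0, 108 to 145 on day 4 and 55.0 to 63.3 in both day 9 groups, and the 5 conventional dendritic cell markers with a cluster to 1841 to 1969 on day 0 and 684 to 729 on day 4. The part of these cells in the changes from day 0 described here was not tested, and in bulk RNA fewer cells of a type and less RNA per cell cannot be told apart.

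**Figure D1:**
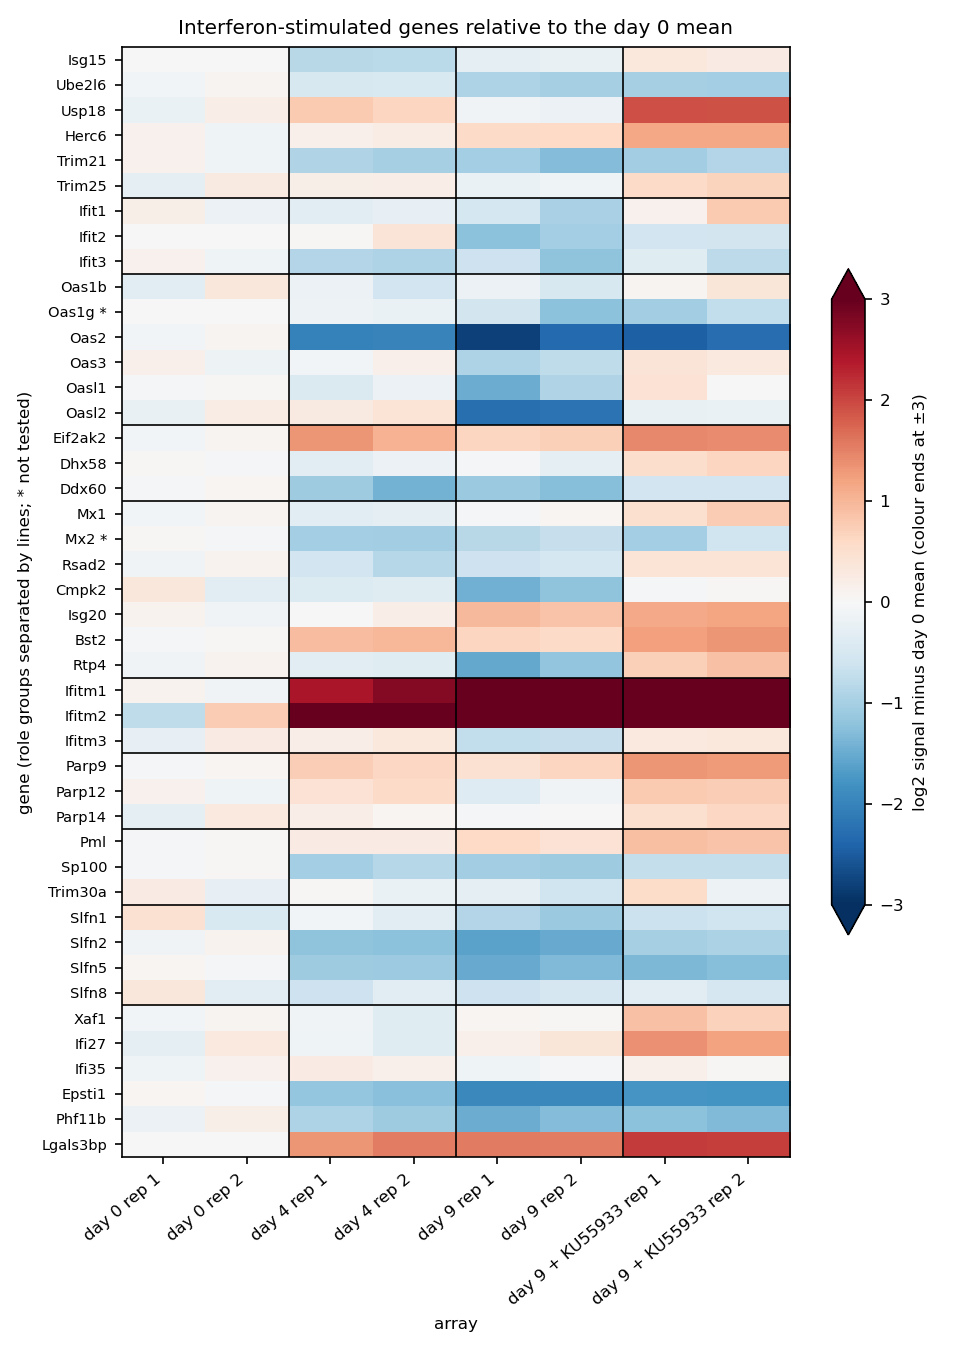
Log2 signal minus the gene's day 0 mean for the 44 listed genes with a cluster of their own (vertical axis, role groups separated by lines, asterisk for the 2 genes not tested) on each of the 8 arrays (horizontal axis), with colour ends at ±3. Ifitm1 and Ifitm2 were higher on all activated arrays, Oas2, Slfn2, Slfn5 and Epsti1 were lower on all of them, and Usp18 and Rtp4 were highest on both KU55933 arrays.

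Activation for 4 days moved the interferon-stimulated genes in both directions. A gene is called changed where limma's moderated test, adjusted by Benjamini-Hochberg over the 13998 genes of the comparison, gave a value below 0.05. By this rule 8 of 42 genes were higher on day 4 than on day 0 and 12 were lower, against 37.5% and 22.4% of all tested genes. The higher genes were Usp18, Eif2ak2, Bst2, Ifitm1, Ifitm2, Parp9, Parp12 and Lgals3bp, and the lower genes included Isg15, Ifit3, Oas2, Ddx60, Rsad2, Sp100, Slfn2, Slfn5 and Epsti1. The median difference was −0.24 (log2) over the list and 0.080 over all tested genes. Centring each array on the median of its 13998 tested genes, not of all clusters, shifted every difference in this comparison by −0.35. The list then divided into 7 higher and 21 lower, against 27.8% and 41.0% of all genes.

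By day 9 more of the list lay below fresh cells. The genes called lower than day 0 numbered 20 of 42 and those called higher 9, against 22.0% and 36.0% of all tested genes, with a median of −0.50 for the list and 0.094 for all. All 3 Ifit genes, 4 of 5 synthetase genes tested and 3 of 4 Schlafen genes fell. Herc6, Isg20 and Pml joined the genes above day 0. With arrays centred, which shifted this comparison by −0.23, 8 were higher and 25 lower, against 29.1% and 33.1% of all genes. Both comparisons use the same day 0 arrays. For Phf11b the difference from day 0 was −0.99 on day 4, −1.38 on day 9 and −1.28 with KU55933 (all called). Lgals3bp differed from day 0 by 1.43, 1.54 and 2.08 in the same order (all called).

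Between day 4 and day 9, 14 of 42 genes fell and 4 rose, against 15.6% and 12.2% of all tested genes, and the median difference was −0.31 against −0.0052. The genes that fell included Oasl2, Ifit2, Rtp4, Ifitm3, Cmpk2, Oasl1, Oas3 and Usp18, and the 4 that rose were Isg15, Herc6, Isg20 and Ifitm1. Centring shifted this comparison by 0.12, and 12 genes were then lower and 7 higher, against 12.3% and 17.6% of all genes. The total was 18, against 27.8% of all genes called in either direction. The total was lower with any day 4, day 9 or KU55933 array left out and higher with either day 0 array left out. The share of all genes called moved the same way. The sums of the macrophage, B cell and neutrophil markers given above also fell between these days, and their part was not tested.

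With KU55933 the list lay almost entirely on the higher side of day 9. The limma test called 12 of 42 genes higher and 0 lower, against 0.750% and 0.236% of all tested genes. At an unadjusted p below 0.05, 28 were higher and 0 lower, against 7.42% and 4.80% of all genes. The difference was positive for 41 of the 42, with Ube2l6 at −0.045 the exception, against 53.5% of all genes. Both KU55933 arrays lay above both day 9 arrays for 34 genes, against 26.7% of all, and below both for 1 gene, against 21.3% of all. The list's median difference was 0.58 (log2) and that of all genes 0.018, and 32 of the 42 exceeded 0.31, the value that 10% of all genes exceed. Rtp4 and Usp18 ranked 4 and 5 of the 13998 genes by difference.

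The number of calls with KU55933 depended on single arrays. Of the 42 differences, 40 or 41 stayed positive without either day 9 array or either KU55933 array. Omitting a day 0 or day 4 array cannot change these differences. Without KU55933 replicate 1 the limma test called 0 of the listed genes and 1 gene of all tested, although 25 genes had an unadjusted p below 0.05. Without KU55933 replicate 2, either day 9 array or either day 4 array, fewer listed genes and fewer of all tested genes were called. Without either day 0 array more of both were called. Usp18, Rtp4 and Oasl2 passed with each of the other 7 arrays left out in turn, and their highest adjusted p, without KU55933 replicate 1, was 0.0572 for Usp18 and Rtp4 and 0.0641 for Oasl2. With arrays centred, which shifted the comparison by −0.070, 7 genes were called higher and 0 lower, against 0.386% and 0.271% of all genes, and 40 of the 42 differences were positive. The calls lost with centring were those of Oasl1, Dhx58, Cmpk2, Bst2 and Ifitm3. Of the markers of other cells, 1 neutrophil marker was called higher (Ly6g, by 1.77), 1 conventional dendritic cell marker lower (Itgax, by −1.02) and 1 macrophage marker lower (Lyz2, by −0.68), and 0 of the tested T cell, B cell and plasmacytoid dendritic cell markers were called. The summed signal of the conventional dendritic cell markers was 391 to 399 on day 9 and 210.5 to 227 with KU55933. Itgax was the brightest of these markers in both groups, with means of 8.40 and 7.38 (log2). H2-Aa (4.56 and 4.02) and Xcr1 (2.75 and 2.61) were also lower with KU55933. Flt3 (2.96 and 3.12) and Zbtb46 (4.19 and 4.42) were higher. The neutrophil sum was higher with KU55933, as given above. The Ly6g mean rose from 3.51 to 5.28, while the median difference of the 8 neutrophil markers was −0.024. The 6 T cell markers summed to 979 to 1019 on day 9 and 1147 to 1298 with KU55933. Their part in the result was not tested.

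**Figure D2:**
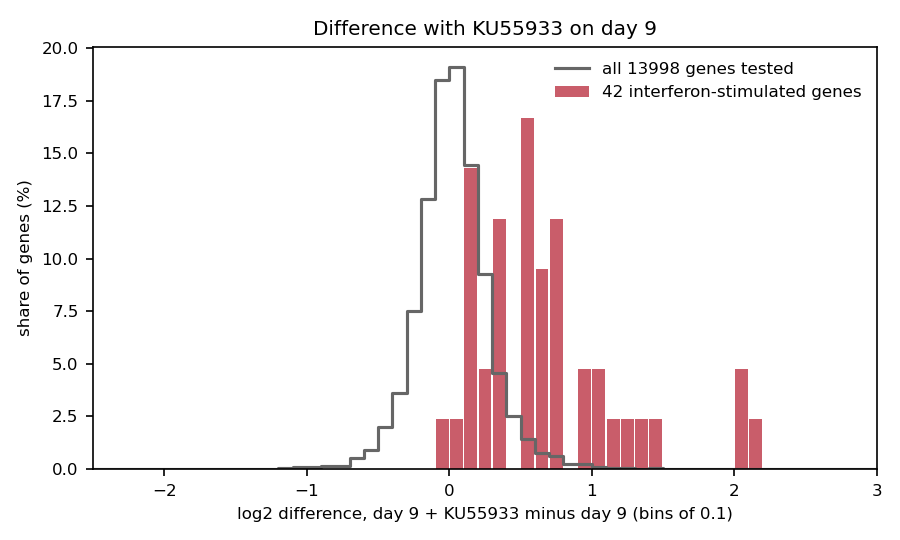
Share of genes (vertical axis, percent) by log2 difference between day 9 with KU55933 and day 9 (horizontal axis, bins of 0.1) for all 13998 tested genes (line) and the 42 interferon-stimulated genes (bars). The line centres near 0.018 and the bars near 0.58, with Rtp4, Usp18 and Oasl2 in the bins above 2, Oasl2 by its measured day 9 signal, which was below the array median.

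**Figure D3:**
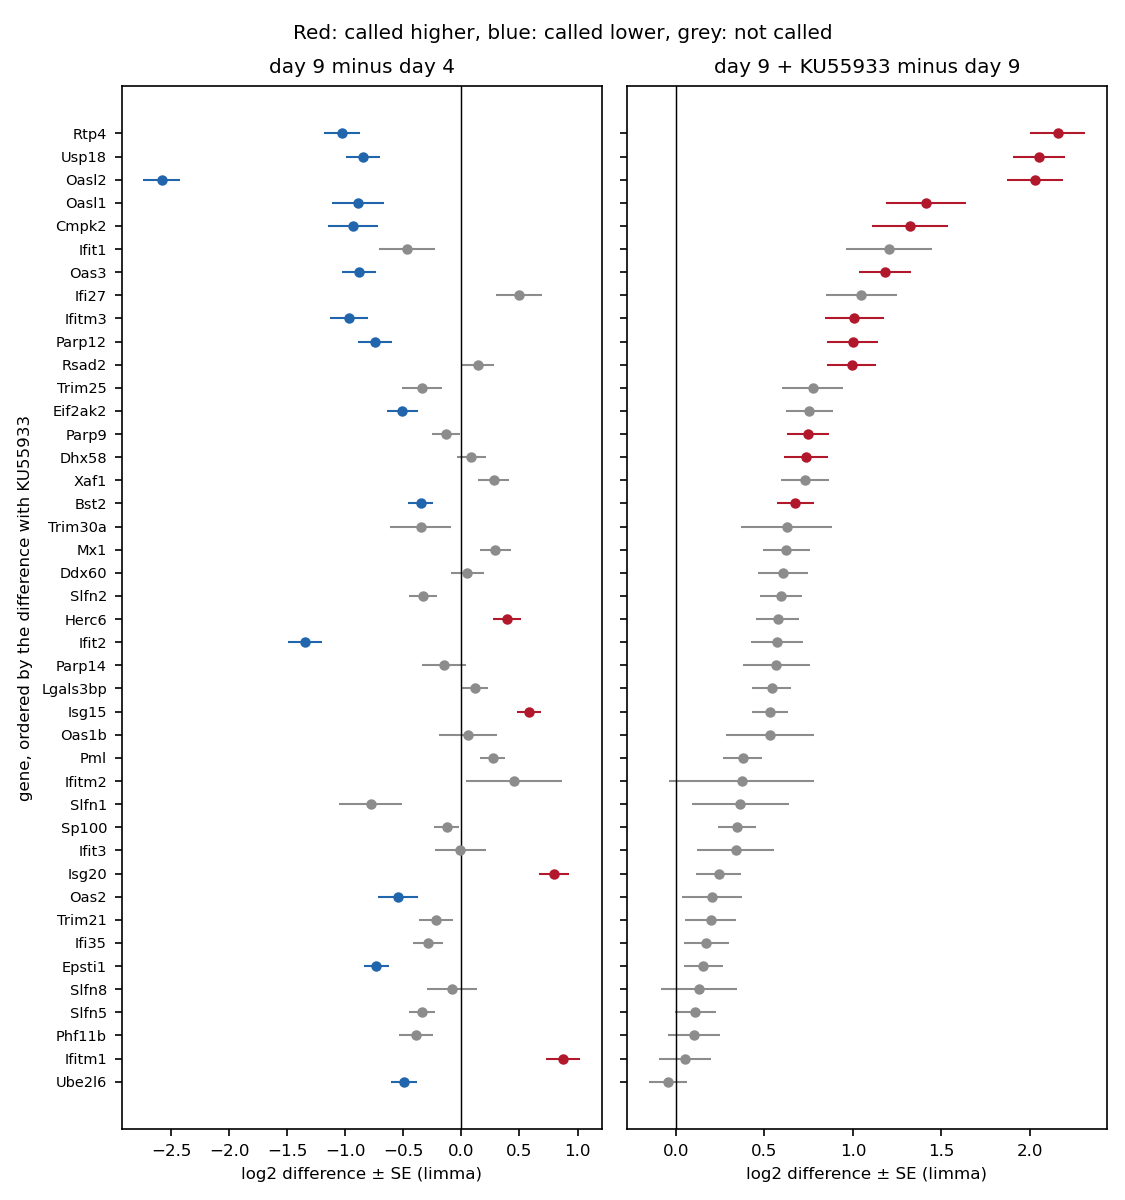
Log2 difference ± SE from limma for each of the 42 genes (vertical axis, ordered by the difference with KU55933) between day 9 and day 4 (left) and between day 9 with KU55933 and day 9 (right), with red for called higher, blue for called lower and grey for not called. Both differences use the day 9 arrays, so they are not independent. Differences are drawn as measured, also for genes below the array median in a group. Oasl2, whose day 9 signal was below it, is farthest to the left in the left panel (at least 3.74-fold), and Rtp4 is highest in the right panel, at 2.16.

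The KU55933 group was also set against the 2 earlier groups, so that its arrays enter 3 comparisons. Against day 4, 15 genes were higher with KU55933 and 4 lower, against 12.3% and 13.7% of all tested genes, with a median of 0.40 against 0.0037. Set against day 0, 20 were higher and 10 lower, against 37.3% and 21.9%, with a median of 0.32 against 0.11. Centring shifted this comparison by −0.30 and gave 15 higher and 14 lower, against 28.5% and 37.2%, with the list's median at 0.019. Ifi27 had the largest difference from day 4, at 1.54 (adjusted p = 0.00111), and Ifitm2 the largest from day 0, at 4.40 (adjusted p = 5.10e-05). Rtp4 differed from day 0 by −1.36 on day 9 and by 0.80 with KU55933, both called, and Rsad2 by −0.58 and 0.41, both called. With arrays centred the Rsad2 difference with KU55933 was 0.11 and no longer called (adjusted p = 0.436), and the calls of Isg15, Trim25, Dhx58 and Parp14 above day 0 were lost as well.

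The ISG15 system attaches a ubiquitin-like protein to targets: Isg15 encodes the modifier, Ube2l6 the conjugating enzyme, Herc6 the mouse ligase and Usp18 the protease that removes it and restrains receptor signalling. Usp18 was 5.73 and 6.12 on day 0, 6.70 and 6.58 on day 4, 5.83 and 5.76 on day 9, and 7.86 and 7.83 with KU55933. Both KU55933 arrays stood above all 6 others, and the day 9 arrays lay within the day 0 range. The rise with KU55933 was 2.05 ± 0.15 (SE, log2, adjusted p = 0.00316), or 4.15-fold. Isg15 was 6.28 and 6.28 on day 0, 5.44 and 5.47 on day 4, 6.01 and 6.05 on day 9, and 6.60 and 6.53 with KU55933. It was lowest on both day 4 arrays, fell by 0.83 from day 0 to day 4 (adjusted p = 0.000216) and rose by 0.58 to day 9 (adjusted p = 0.00435). Its difference of 0.53 with KU55933 missed the threshold (adjusted p = 0.0673) although the groups did not overlap, and its call above day 0 with KU55933 (0.28) turned to −0.014 with arrays centred and to −0.025 with quantile normalization. Herc6 was 6.77 and 6.52, 6.81 and 6.86, 7.23 and 7.23, and 7.79 and 7.81 in the same order of groups. The day 9 arrays were above those of both earlier days, by 0.59 over day 0 (adjusted p = 0.00348), and the 0.57 with KU55933 was not called (adjusted p = 0.0890).

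Ube2l6 fell by 0.47 from day 0 to day 4 and by 0.96 to day 9, and differed from day 0 by −1.01 with KU55933, with its lowest values in both day 9 groups. Among the ubiquitin ligases Trim25, which modifies the RNA sensor RIG-I, was 7.13 and 7.67 on day 0, 7.57 and 7.60 on day 4, 7.21 and 7.28 on day 9, and 7.96 and 8.07 with KU55933. The KU55933 arrays were the highest of the 8, the groups on days 0 and 4 overlapped, and the difference of 0.77 over day 9 was not called (adjusted p = 0.107). Trim21, an intracellular antibody receptor, fell by 0.94 to day 4 and by 1.16 to day 9, and its difference with KU55933 over day 9 was 0.20.

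IFIT proteins bind viral RNA and impair its translation. Near-identical relatives of these genes lie beside them, so the array signal may mix copies. Ifit2 was 4.22 and 4.21 on day 0, 4.25 and 4.61 on day 4, 2.97 and 3.19 on day 9, and 3.65 and 3.66 with KU55933. Day 9 and KU55933 arrays lay below the array medians there (not well above background by this measure), so day 9 was at least 1.65-fold below day 4 (adjusted p = 0.000426). Ifit3 was 6.49 and 6.22, 5.46 and 5.43, 5.73 and 5.15, and 5.98 and 5.57 across the groups. It fell by 0.90 to day 4 (adjusted p = 0.00768) and fell by 0.91 to day 9 (adjusted p = 0.00751), both from day 0, and the day 9 and KU55933 arrays overlapped. Ifit1 had the largest difference with KU55933 among the genes not called: 1.20 (adjusted p = 0.0776), its 2 KU55933 arrays being 5.28 and 5.94.

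The synthetases make 2-5-oligoadenylates that activate RNase L, and Oasl1 and Oasl2 encode synthetase-like relatives. Oas2 was 5.93 and 6.07 on day 0, 3.97 and 3.99 on day 4, 3.19 and 3.68 on day 9, and 3.56 and 3.72 with KU55933. Fresh cells were far above all activated groups: the signal fell by 2.02 ± 0.17 to day 4 (adjusted p = 2.66e-05), and day 9, below the array median, was at least 4.92-fold lower. Its KU55933 and day 9 arrays overlapped. Oasl2 was 5.04 and 5.49 on day 0, 5.53 and 5.68 on day 4, 3.0 and 3.05 on day 9, and 5.04 and 5.07 with KU55933. Day 9 was below the array median, at least 3.74-fold below day 4 (adjusted p = 1.96e-05) and at least 2.55-fold below KU55933 (adjusted p = 0.00316). Its KU55933 arrays overlapped the day 0 range. The neighbouring gene Oasl1 was 5.02 and 5.09, 4.61 and 4.89, 3.56 and 4.16, and 5.49 and 5.05 across the groups. Its day 9 arrays were the lowest of the 8, and the rise with KU55933 was 1.41 ± 0.23 (adjusted p = 0.0405). This call did not survive the omission of any one array.

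Oas3, whose neighbour in the genome is Oas2, was 5.71 and 5.39 on day 0, 5.48 and 5.70 on day 4, 4.64 and 4.78 on day 9, and 5.94 and 5.83 with KU55933. It was lowest on day 9, fell by 0.88 from day 4 (adjusted p = 0.00350) and rose by 1.18 ± 0.15 with KU55933 (adjusted p = 0.0199). Oas2 was also called lower on day 9 than on day 4 (at least 1.21-fold, adjusted p = 0.0460), while its day 9 and KU55933 arrays overlapped. Oas1b, the synthetase linked to flavivirus resistance in mice, was called in no comparison.

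Eif2ak2 encodes PKR, the kinase that stops translation on double-stranded RNA, and Dhx58 and Ddx60 encode helicases of RNA sensing. Eif2ak2 was 6.03 and 6.18 on day 0, 7.44 and 7.14 on day 4, 6.75 and 6.81 on day 9, and 7.54 and 7.53 with KU55933. It was higher than day 0 in every activated group, by 1.19 on day 4 (adjusted p = 0.000126), fell by 0.51 to day 9 (adjusted p = 0.0244), and its 0.75 with KU55933 just missed the threshold (adjusted p = 0.0521). Ddx60 was 5.06 and 5.16, 4.05 and 3.70, 4.00 and 3.84, and 4.53 and 4.52 in the same order. Fresh cells were highest and the KU55933 arrays came next, with no overlap, and the signal fell by 1.24 to day 4 (adjusted p = 0.000150). Dhx58 rose with KU55933 by 0.74 (adjusted p = 0.0459).

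The antiviral effectors act at many steps. Rtp4, which restrains flavivirus replication, was 6.52 and 6.74 on day 0, 6.32 and 6.28 on day 4, 5.09 and 5.46 on day 9, and 7.34 and 7.52 with KU55933. It was lowest on both day 9 arrays and highest on both KU55933 arrays, a rise of 2.16 ± 0.16 (adjusted p = 0.00316), or 4.46-fold. Cmpk2, a mitochondrial nucleotide kinase next to Rsad2 in the genome, was 6.08 and 5.38, 5.32 and 5.37, 4.29 and 4.53, and 5.69 and 5.78. It fell by 0.94 from day 4 to day 9 (adjusted p = 0.0140) and rose with KU55933 by 1.32 ± 0.21 (adjusted p = 0.0410), to a mean near that of day 0. Bst2, the tetherin that holds virions at the cell surface, was 8.04 and 8.12 on day 0, 9.01 and 9.06 on day 4, 8.72 and 8.64 on day 9, and 9.32 and 9.39 with KU55933. Groups did not overlap; it rose by 0.96 to day 4 (adjusted p = 0.000125) and by 0.67 with KU55933 (adjusted p = 0.0388). Bst2 also marks plasmacytoid dendritic cells in mouse, whose other markers are given above. Isg20, an exonuclease, was 5.89 and 5.68, 5.81 and 6.0, 6.75 and 6.65, and 6.92 and 6.97, higher on day 9 than day 4 by 0.80 (adjusted p = 0.00268), with no call for KU55933 (0.24). Rsad2, the viperin gene, fell by 0.72 to day 4 and rose by 0.99 with KU55933 (adjusted p = 0.0257). Mx1, a dynamin-like GTPase, was below the array median on all 6 arrays without inhibitor and 4.10 and 4.37 with it, at least 1.45-fold higher than day 9, which was not called (adjusted p = 0.0941).

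**Figure D4:**
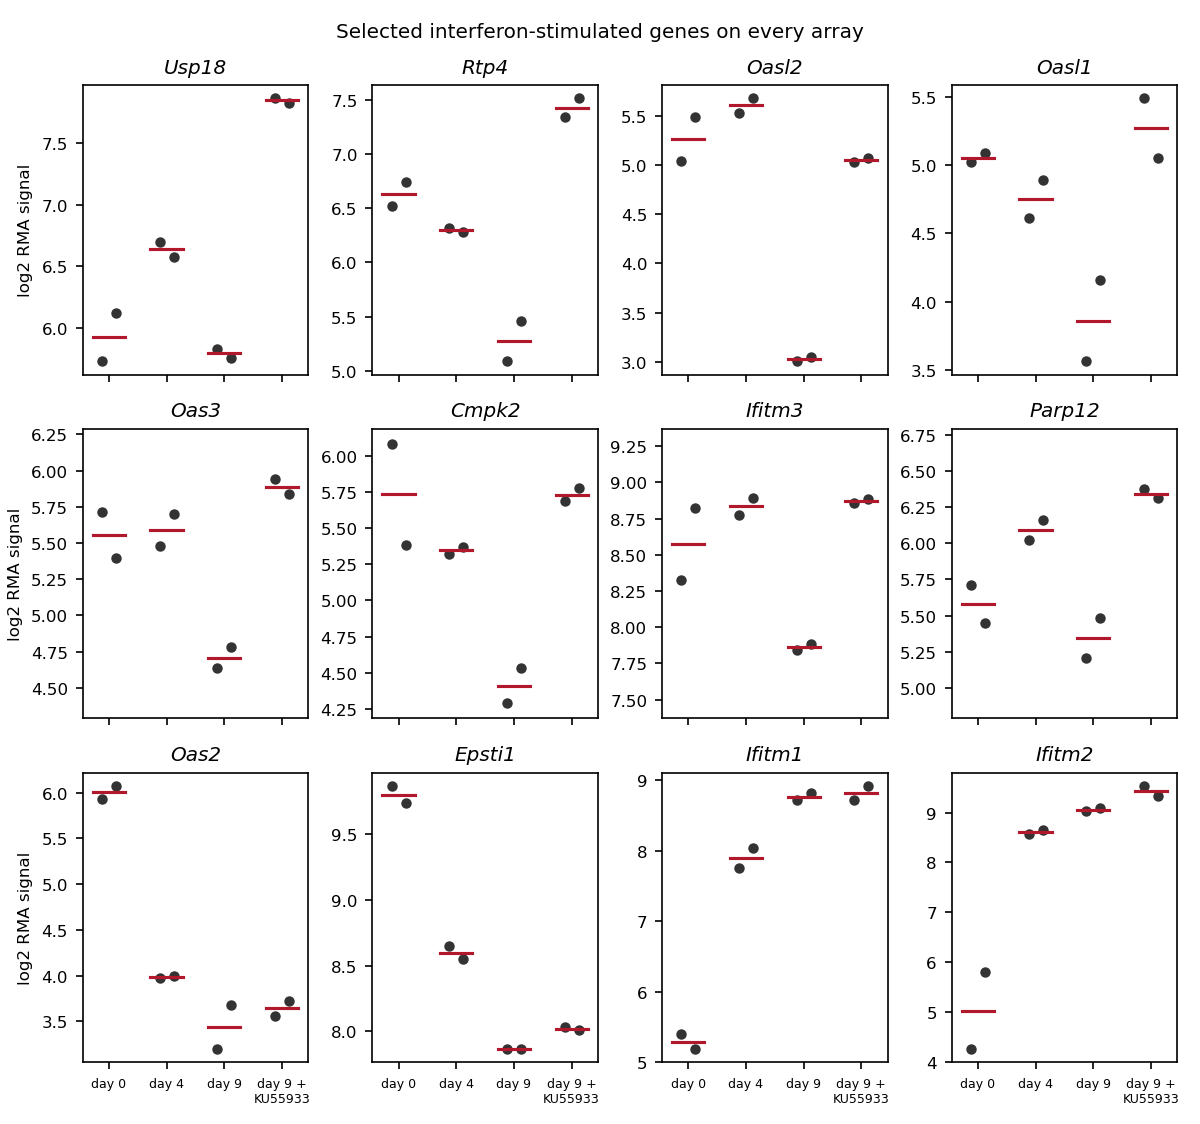
Log2 RMA signal (vertical axes, each with its own range) of 12 interferon-stimulated genes on each of the 8 arrays by group (horizontal axes), with points for arrays and lines for the mean of 2. Usp18 and Rtp4 are highest with KU55933, Oasl2, Oasl1, Oas3 and Cmpk2 dip on day 9, and Ifitm1 and Ifitm2 rise from day 0 and stay high.

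IFITM proteins restrict virus entry at membranes. Ifitm2 was 4.25 and 5.80 on day 0, 8.57 and 8.65 on day 4, 9.03 and 9.09 on day 9, and 9.54 and 9.33 with KU55933. All 6 activated arrays were far above fresh cells, and the rise to day 4 was 3.58 ± 0.41 (adjusted p = 0.000148), or 12-fold. The day 0 arrays differed by more than for any other IFITM gene. Ifitm1 was 5.40 and 5.18, 7.75 and 8.03, 8.71 and 8.82, and 8.72 and 8.92. It rose by 2.60 to day 4 (adjusted p = 4.52e-06) and a further 0.87 to day 9 (adjusted p = 0.00350), and the day 9 and KU55933 arrays overlapped (difference 0.052). Ifitm3 was 8.32 and 8.82, 8.77 and 8.90, 7.84 and 7.88, and 8.86 and 8.88. Its day 9 arrays were the lowest of the 8, and it rose with KU55933 by 1.01 ± 0.17 (adjusted p = 0.0420) to the day 4 range. The 3 genes lie side by side and share sequence, so cross-hybridisation between them cannot be told apart from their own signal.

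Parp9, Parp12 and Parp14 are ADP-ribosyltransferases that interferon induces. Parp12 was 5.71 and 5.45 on day 0, 6.02 and 6.16 on day 4, 5.20 and 5.49 on day 9, and 6.37 and 6.31 with KU55933. Its KU55933 arrays were the highest of all, and the rise was 1.00 ± 0.14 (adjusted p = 0.0317). Parp9 was 6.66 and 6.76, 7.44 and 7.34, 7.16 and 7.36, and 8.03 and 7.98, higher than day 0 by 0.68 on day 4 (adjusted p = 0.00151) and higher with KU55933 than on day 9 by 0.75 (adjusted p = 0.0390). Parp14 was 7.42 and 8.02, 7.93 and 7.77, 7.69 and 7.71, and 8.19 and 8.34. The KU55933 arrays were highest, the others overlapped, and the difference of 0.57 from day 9 was not called (adjusted p = 0.278).

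Pml and Sp100 build the nuclear bodies that bear the name of PML. Pml was 7.70 and 7.77, 7.97 and 7.98, 8.32 and 8.16, and 8.65 and 8.59, above day 0 by 0.51 on day 9 (adjusted p = 0.00477), or by 0.28 with arrays centred (adjusted p = 0.0721). Sp100 was 10.04 and 10.11, 9.07 and 9.23, 9.02 and 9.02, and 9.37 and 9.36. Unlike Pml, Sp100 had its highest signals in fresh cells and fell by 0.93 to day 4 (adjusted p = 0.000174), and the day 4 mean was below the day 0 mean in all its 4 clusters. Of the Schlafen genes, Slfn2 is linked to T cell quiescence in mouse. Against day 0, 2 of the 4 were called lower on day 4 and 3 of the 4 on day 9. Of all tested genes, 22.4% and 22.0% were called lower in these comparisons. With KU55933 against day 9 none of the 4 was called, near the shares of all tested genes (0.750% higher and 0.236% lower). Slfn2 was 8.96 and 9.19, 7.86 and 7.84, 7.46 and 7.57, and 8.09 and 8.13, and fell by 1.22 to day 4 (adjusted p = 6.12e-05). Slfn5 was 4.90 and 4.77, 3.77 and 3.75, 3.33 and 3.5, and 3.49 and 3.56, and lay at least 2.19-fold below day 0 on day 9 (adjusted p = 2.51e-05), when both arrays were under the array median.

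Among the other genes, Epsti1, named for epithelial and stromal interaction, was 9.87 and 9.74 on day 0, 8.65 and 8.55 on day 4, 7.87 and 7.86 on day 9, and 8.03 and 8.01 with KU55933. It fell at each step without KU55933, by 1.20 to day 4 (adjusted p = 4.03e-05) and 0.73 more to day 9 (adjusted p = 0.00198), and the 0.15 with KU55933 was not called. Lgals3bp, a secreted galectin ligand, was 8.18 and 8.21, 9.53 and 9.72, 9.75 and 9.73, and 10.29 and 10.27, rising by 1.43 to day 4 (adjusted p = 1.98e-05) with no overlap between fresh and activated arrays. Ifi27 differed by 1.05 with KU55933 (adjusted p = 0.0679) and Xaf1 by 0.73 (adjusted p = 0.0592), both with the 2 KU55933 arrays above the 2 day 9 arrays.

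Receptor and signalling genes of the pathway were listed with the interferon-stimulated genes and described here for 16 tested genes, while Ifnb1 and Ifnlr1 lay below the filter. On day 4, 3 of the 16 were called higher than day 0 and 11 lower, against 37.5% and 22.4% of all tested genes. On day 9, 3 were higher and 12 lower, against 36.0% and 22.0%. With KU55933, 2 were called higher than day 9 and 0 lower, against 0.750% and 0.236%, and 14 were not called. Irf7, the factor that amplifies interferon production, was 8.11 and 8.36 on day 0, 6.09 and 6.18 on day 4, 5.64 and 5.55 on day 9, and 6.84 and 6.80 with KU55933, a rise over day 9 of 1.23 (adjusted p = 0.00939). Irf9, part of ISGF3, was 6.88 and 6.85, 6.09 and 5.83, 6.15 and 6.13, and 7.12 and 7.26, a rise of 1.05 (adjusted p = 0.0172). In both genes the KU55933 arrays lay above both day 9 and both day 4 arrays. Stat2 differed by 0.47 (adjusted p = 0.261), the receptor genes Ifnar1 and Ifnar2 by −0.20 and 0.0043, and Ifng by −0.15, and none of these 4 was called. Ifnb1 was 2.34 to 2.66 on every array, below the array medians. Il2ra, the alpha chain of the IL-2 receptor, was also higher with KU55933, by 0.67 (adjusted p = 0.0421).

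**Figure D5:**
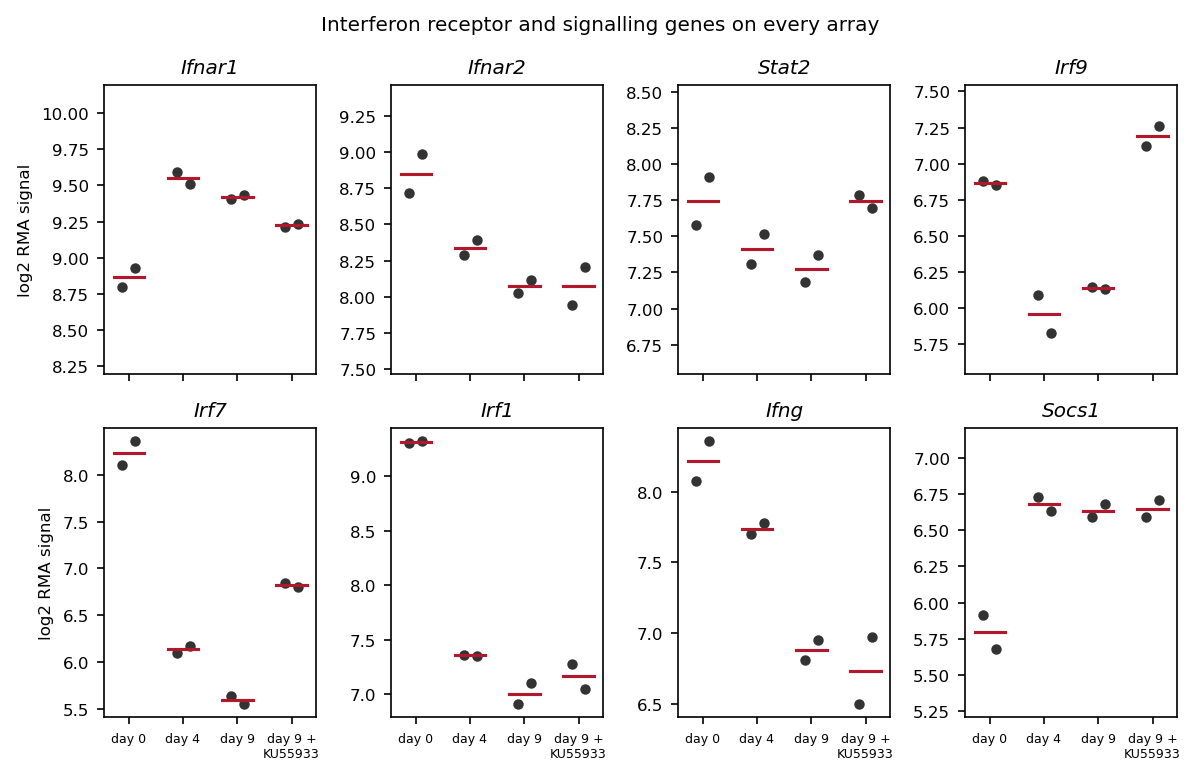
Log2 RMA signal (vertical axes, each with its own range) of 8 receptor and signalling genes on each of the 8 arrays by group (horizontal axes), with points for arrays and lines for the mean of 2. Irf9 and Irf7 are higher with KU55933 than on days 4 and 9, Ifnar2 and Ifng overlap between the day 9 groups, and Irf1 is highest in fresh cells.

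The response element core was set beside the KU55933 calls as a description. Of the 12 genes called higher, 8 have a window and 4 of these hold the response element core, as do 11 of the 25 with a window that were not called. The median difference was 0.61 for the 15 tested genes with the core and 0.55 for the 18 without. Oas1b, Trim30a, Slfn8 and Ifi35 were called in none of the 6 comparisons. The authors' deposited table lists 34 of the 48 genes. Its ANOVA over all 4 groups, which does not name the groups that differ, gives 31 of them a false discovery rate p-value below 0.05. The share of all its clusters below 0.05 was not counted, so the 31 cannot be read as a result about the list. Those not below it were Oasl1 (0.086), Cmpk2 (0.071) and Ifitm3 (0.059), which were called higher with KU55933 here.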

How the data were processed

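Samples were grouped by their labels alone. RMA summarised the array signals, per the submitters' processing notes, and the authors deposited log2 signals for 41345 transcript clusters. A second deposited table holds log2 group averages of 11036 clusters with the authors' p-value from an ANOVA over all groups and its false discovery rate p-value, for which the processing notes name the Transcriptome Analysis Console. No source used here gives tool versions or the build behind the array annotation. The number of arrays limits the precision.

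A supplied probe table paired clusters with gene symbols. Clusters naming several genes were left out, and a gene with several clusters was represented by the one with the highest mean. Genes were tested where at least 2 arrays reached the median of all clusters (percentile 50). A signal below that median on both arrays of a group was treated as background, which turns a fold into a bound. One linear model held the 4 group means and all 8 arrays (limma 3.58.1, functions lmFit and eBayes, R 4.3.3), with 4 residual and 3.69 prior degrees of freedom. Each of the 6 comparisons was adjusted by Benjamini-Hochberg over 13998 genes. Given with all array values were the 8 largest called changes without overlap in each of 4 main comparisons, the member of each role group with the highest mean, and called members against the main direction, 28 genes in all. The values of Ifit1, Mx1 and the other members stand by their change, some with array values, and were chosen after their values were seen. The interferon-stimulated genes, the other lists and the tests were chosen with earlier results of these data known. Alternatives were the dim filter, the choice of cluster, centring, quantile normalization, a mean-variance trend, array weights, the replicate block, the 4 arrays compared and each array left out. The code was tested on simulated data. Figures were drawn with Python 3.11.15 and matplotlib 3.10.9.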

Additional observations from a re-analysis of the deposited data

How the results depend on the processing

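The number of interferon-stimulated genes called with KU55933 against day 9 was 12, all higher. It was 4 with no filter on dim genes, 7 with arrays centred, 7 with quantile normalization, 21 with a mean-variance trend, 22 with array weights and 6 with only the 4 arrays compared. Leaving out single arrays moved the number and the share of all genes in the same direction, lower for some arrays and higher for others. Leaving out both day 0 arrays, chosen after seeing the data, gave 18 (1.33%). With the replicate number as a block it was 4 (0.300%). The replicate numbers did not pair the samples, since correlations of same-numbered deviations lay between −0.03 and 0.05. No gene of the list was called lower under any of these settings. For day 9 against day 4, with 18 calls, single-array omission gave 10 to 25. The total counts of the other 4 comparisons stayed within 1.5 times their own values. By direction, genes lower on day 4 than day 0 went from 12 to 21 and genes higher on day 9 than day 4 from 4 to 7 with arrays centred, and genes higher on day 9 than day 0 went from 9 to 5 with quantile normalization. The 4 genes lower with KU55933 than on day 4 became 1 with the filter at percentile 75 or without either day 4 array and 2 without either KU55933 array. Of 128 member results past the threshold, 88 kept their call under every alternative run and 94 whichever array was left out. The only reversal was Isg15 with KU55933 against day 0, at −0.014 with arrays centred (adjusted p = 0.912) and −0.025 with quantile normalization (adjusted p = 0.849). Group sizes of 2, and signals near the array median, limit these results.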

Other observations

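The clusters left out of the fits followed the same groups in part. The second Lgals3bp cluster averaged 5.22 in fresh cells, 6.99 on day 4, 6.85 on day 9 and 7.50 under KU55933. The second Ifi35 cluster had means of 4.48, 4.64, 4.64 and 4.86 in the same order. Mki67, a marker of dividing cells that is not on the list, was 8.22 and 8.28 in fresh cells, 10.66 and 10.54 after 4 days, 6.88 and 6.61 after 9 days, and 7.53 and 7.26 under KU55933, and its difference of 0.65 with KU55933 was not called (adjusted p = 0.102).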
